A study of Mus musculus with 10 samples.

Results

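Nnt, Ide, Fgfbp3, Wdfy1, Entpd4, Cyfip2 and Nlrp12 are mouse genes known to differ in sequence, copy number or expression between or within C57BL/6 substrains. They were chosen by gene symbol, partly because Nnt and Ide had already stood out between the genotypes of this study. All 7 were among the 25078 genes in the count table. Of these genes 18747 had at least 1 count in some library and were fitted, and 6 of the 7 were among them, because Entpd4 had 0 counts in all 10 libraries. Since the choice used these libraries, the differences of the 7 genes between the genotypes are given as a description, without p-values.

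RNA was sequenced from LSK cells (bone marrow cells without lineage markers that carry Sca-1 and c-Kit, among them the hematopoietic stem cells) of 10 mice, with 1 library per mouse. The 5 CM mice carried a conditional allele of Cbfb-MYH11, the fusion gene of inv(16) leukemia, in the heterozygous state, together with Mx1-Cre. In the 5 CM/miR-126Δ/Δ mice, which had this allele and Mx1-Cre too, both floxed copies of miR-126 were deleted as well. Mice of both genotypes received poly(I:C), an inducer of interferon, at 6 to 8 weeks of age, and cells were collected 6 weeks later, before leukemia. Mx1-Cre responds to interferon in many cell types and is not restricted to LSK cells. Mice of both sexes were used. The study describes its lines as backcrossed to C57BL/6 for more than 10 generations, without naming the substrain of the mice sequenced. A further number in the column headers of the count table is higher for every CM mouse than for any CM/miR-126Δ/Δ mouse. What that number marks is not given. Whether mice of a genotype were littermates is not given in the sources used here, so genotype and ancestry cannot be told apart by the labels.

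Inbred C57BL/6 mice have been kept as separate colonies, and the J and N substrains have collected different mutations. Nnt is the best known of these: it encodes the transhydrogenase of the inner mitochondrial membrane, which uses the proton gradient to make NADPH, and several of its exons are deleted in C57BL/6J but not in C57BL/6N. Ide and Fgfbp3 lie inside a copy number gain on chromosome 19 that is known to be present in some C57BL/6J mice and absent from others. Mice of a line crossed to more than 1 colony can therefore differ at such genes for reasons of ancestry, and a gene near a selected allele can be carried along with it. A count per gene shows neither the allele nor the number of copies.

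None of the 7 genes lies on the chromosome of Mir126a or of Cbfb. In mm10, Mir126a lies within Egfl7 on chromosome 2 and Cbfb lies on chromosome 8, and the insertion site of the Mx1-Cre transgene was not looked at. Nnt was counted over chr13:119334317-119409257, Ide over chr19:37268741-37330613 and Fgfbp3 over chr19:36917550-36919599. Wdfy1 lies at chr1:79702262-79761769, Cyfip2 at chr11:46193849-46312859, Nlrp12 at chr7:3221510-3249740 and Entpd4 at chr14:69337151-69584992. Entpd4 is on the forward strand and the other 6 are on the reverse strand.

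The deleted microRNA is shown because its seed decides which transcripts it could pair with. In RefSeq (GRCm38.p6) mature mmu-miR-126a-3p is at chr2:26591402-26591423 on the forward strand, and the capitals mark bases 2 to 8, the seed:
mmu-miR-126a-3p: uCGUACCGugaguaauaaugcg

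Neither the 7-base match to this seed (CGGTACG) nor the 6-base match (GGTACG) was found in the longest 3′ untranslated region of any of the 7 genes, on the transcribed strand, in the transcripts of GENCODE M1. Those regions were 909 to 3249 bases long. Among 9638 expressed genes with such a region, 0.259% held the 7-base match and 3.58% held the 6-base match, so a gene without a match was the usual case. The search covers these letters in this region alone.

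Promoter sequences are shown for Ide and Fgfbp3, because their levels moved together between mice. RefSeq held a promoter (250 bases before to 50 after the start) for 4 of the 7 genes, these 2, Cyfip2 and Nlrp12, and none was matched for Nnt, Wdfy1 and Entpd4. Motifs were searched on both strands. The TATA box was taken as TATAAA and the GC box, a site of Sp1-type factors, as GGGCGG. The E-box was taken as CACGTG and the CCAAT box as its own letters. No letters of one match shown were shared with another. Both sequences are written 5′ to 3′ on the reverse strand of GRCm38.p6, with matches in capitals. The Ide window is chr19:37334495-37334794, around a RefSeq start that lies beyond the end of Ide in the count table, and the Fgfbp3 window is chr19:36919550-36919849:
Ide: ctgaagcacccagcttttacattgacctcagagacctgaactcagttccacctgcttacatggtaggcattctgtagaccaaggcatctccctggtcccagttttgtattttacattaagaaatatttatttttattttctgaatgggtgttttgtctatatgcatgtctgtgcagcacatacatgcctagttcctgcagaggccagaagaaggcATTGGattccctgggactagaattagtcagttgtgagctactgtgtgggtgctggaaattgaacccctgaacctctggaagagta
Fgfbp3: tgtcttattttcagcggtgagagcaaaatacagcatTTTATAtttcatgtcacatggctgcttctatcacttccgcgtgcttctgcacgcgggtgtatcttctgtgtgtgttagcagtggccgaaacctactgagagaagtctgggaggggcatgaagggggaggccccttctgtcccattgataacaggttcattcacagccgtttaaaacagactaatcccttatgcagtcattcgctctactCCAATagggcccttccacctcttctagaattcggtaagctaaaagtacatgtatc

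Both windows held CCAAT on one strand, as did 37.4% of 32851 promoters of this length, and Fgfbp3 also held TATAAA, as did 13.6%. The Ide window had 44.0% G and C and 0 CpG, and the Fgfbp3 window 46.7% and 9 CpG, where the median promoter had 52.7% and 7. The RefSeq start of Ide used for this window is at 37334544, while Ide was counted up to 37330613. No window at the end of the counted interval was examined, so these values may not describe its promoter. By contrast, the Cyfip2 window had 70.7% G and C, 29 CpG and a GGGCGG match, which 35.7% of promoters share, and the Nlrp12 window had 49.7%, 5 CpG and none of the 4 motifs. CACGTG was in none of the 4 windows and in 7.15% of all promoters. A match is a run of letters and was not tested as a binding site.

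Total counts per library were 23649233 to 33202086, and 3 counts, taken as the limit of detection, corresponded to 0.0908 to 0.131 CPM (counts relative to the total of the library, on the usual per-million scale, with TMM factors). Mir126a had 0 to 5 counts in the CM mice and 0 counts in every CM/miR-126Δ/Δ mouse, each at or near that limit, while its host gene Egfl7 was at 114 ± 20.0 CPM (SD, n = 5) in the CM mice and 107 ± 12.2 CPM in CM/miR-126Δ/Δ mice. Genes whose RPKM (CPM per kilobase of exon) averaged 1 or more are called expressed here, and all 10 LSK markers were. The library of CM/miR-126Δ/Δ mouse 3 gave 22.6% of its counts to ribosomal Rn45s, where the other 9 gave 14.8 to 18.6%, and it had the smallest TMM factor, 0.922. Its Nnt and Wdfy1 values, described further on, were the lowest of its genotype, and the part of this library's composition in them was not tested. In bulk samples, fewer cells of a type and less RNA per cell cannot be told apart.

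Ide, Fgfbp3 and Nnt separated the genotypes completely, Wdfy1 was high in 2 mice of 1 genotype, Cyfip2 had overlapping values of near-equal mean and Nlrp12 was close to absent. By the cutoffs of the study (p at or below 0.01, at least 1.5-fold, mean RPKM of at least 1 in 1 genotype) 1 of the 6 fitted genes was called, Ide, where 0.288% of all fitted genes were called, 0.192% as higher and 0.096% as lower in CM/miR-126Δ/Δ mice. At an adjusted p under 0.05 (edgeR quasi-likelihood test, Benjamini-Hochberg over all fitted genes) none of the 6 was called, where 0.0107% of all were. With the replicate number as a block 1 of the 6, Ide, passed that threshold, beside 20 of all 18747 fitted genes. With DESeq2 2 of the 6 did, Nnt and Ide, beside 31 of all. For 3 of the 6, Ide, Fgfbp3 and Nnt, the 2 genotypes did not overlap in CPM, and this held for 1.1% of all fitted genes. These calls come from the contrast that led to the choice of the genes.

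**Figure D1:**
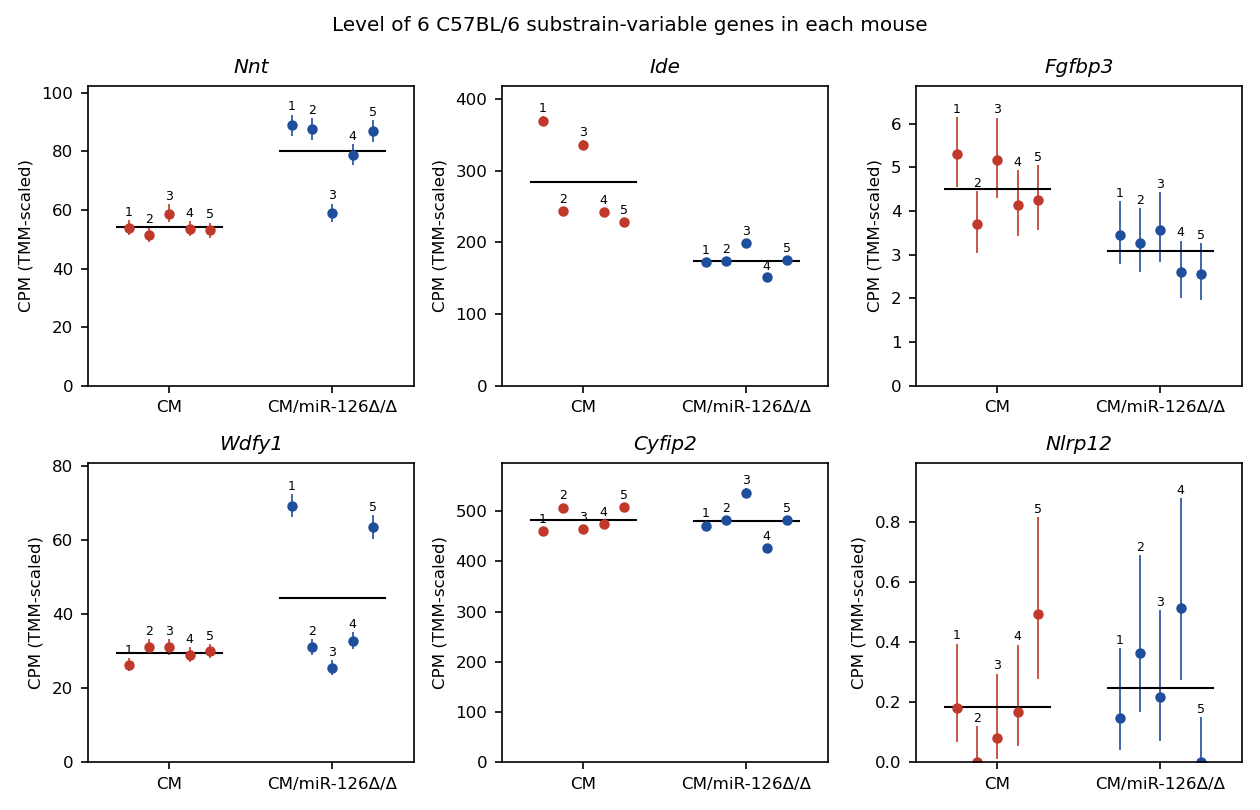
CPM (TMM-scaled, vertical axes from 0) of 6 genes in each of the 10 mice, numbered by replicate within genotype, with CM in red and CM/miR-126Δ/Δ in blue. Horizontal lines are genotype means and vertical bars are 95% counting intervals of single libraries. In the Ide panel CM mice 1 and 3 stand above the other CM mice, which stand above all CM/miR-126Δ/Δ mice. In the Nnt panel CM/miR-126Δ/Δ mouse 3 sits at the level of the CM mice, and in the Wdfy1 panel CM/miR-126Δ/Δ mice 1 and 5 sit apart from the other 8 mice.

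Ide encodes the insulin-degrading enzyme, a zinc metallopeptidase that cleaves insulin, amyloid beta and other short peptides. It was the gene of the 7 with the largest difference, at 284 ± 64.0 CPM in the CM mice and 175 ± 16.9 CPM in the CM/miR-126Δ/Δ mice (SD, n = 5 each). The CM mice numbered 1 to 5 had 369.2, 243.6, 335.8, 241.9 and 228.7 CPM. The CM/miR-126Δ/Δ mice had 172.7, 173.8, 199.1, 151.4 and 175.9 CPM. The lowest CM mouse was thus above the highest CM/miR-126Δ/Δ mouse, and the CM mice were spread more widely among themselves, with a coefficient of variation of 22.5% against 9.69%. The fitted log2 fold change (CM/miR-126Δ/Δ over CM) was −0.70 (SE 0.13), a level 1.63-fold higher in CM.

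Within the CM genotype the Ide values fell into a lower run of 3 mice and a higher run of 2. Relative to the CM/miR-126Δ/Δ mean, CM mice 2, 4 and 5 were at 1.40, 1.39 and 1.31, and CM mice 1 and 3 were at 2.11 and 1.92. In the order of all 10 mice the widest step, 1.38-fold, was between CM mice 2 and 3, and the step between the genotypes, from CM/miR-126Δ/Δ mouse 3 to CM mouse 5, was 1.15-fold. The 95% counting intervals did not overlap at either step. Counting intervals cover the sampling of reads within a library and not the variation between mice or libraries, and without molecular identifiers they are a lower limit on the error. CM mouse 1 carried much of the call. Without it the log2 fold change of Ide was −0.58 and none of the 6 genes met the cutoffs of the study, beside 48 of all 18671 genes fitted.

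Fgfbp3 encodes a secreted protein that binds fibroblast growth factors and releases them from the matrix. It lies on the same chromosome as Ide and was far less abundant, with 62 to 175 counts per library. Per length, Fgfbp3 was at 2.57 RPKM in CM and 1.76 RPKM in CM/miR-126Δ/Δ mice, against 57.2 and 35.2 RPKM for Ide. Its values were 5.30, 3.70, 5.16, 4.13 and 4.26 CPM in CM mice 1 to 5, and 3.45, 3.27, 3.57, 2.61 and 2.55 CPM in CM/miR-126Δ/Δ mice 1 to 5. The same 2 CM mice, 1 and 3, were the highest, and the genotypes did not overlap, at means of 4.51 ± 0.689 and 3.09 ± 0.476 CPM (SD, n = 5 each).

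The fitted log2 fold change of Fgfbp3 was −0.54 (SE 0.16). At this depth every step between neighbouring mice in its order, including the step between the genotypes, was within the overlap of the 2 counting intervals. The number of Ide counts per Fgfbp3 count was 50.1 to 69.7 over the 10 mice, a narrower range than that of Ide itself (151.4 to 369.2 CPM). Over the 10 libraries the Pearson correlation of log2 CPM between the 2 genes was 0.92, which includes the offset between the genotypes. Ranked against 11681 expressed genes, Fgfbp3 was the 4th most like Ide and Ide the 2nd most like Fgfbp3.

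**Figure D2:**
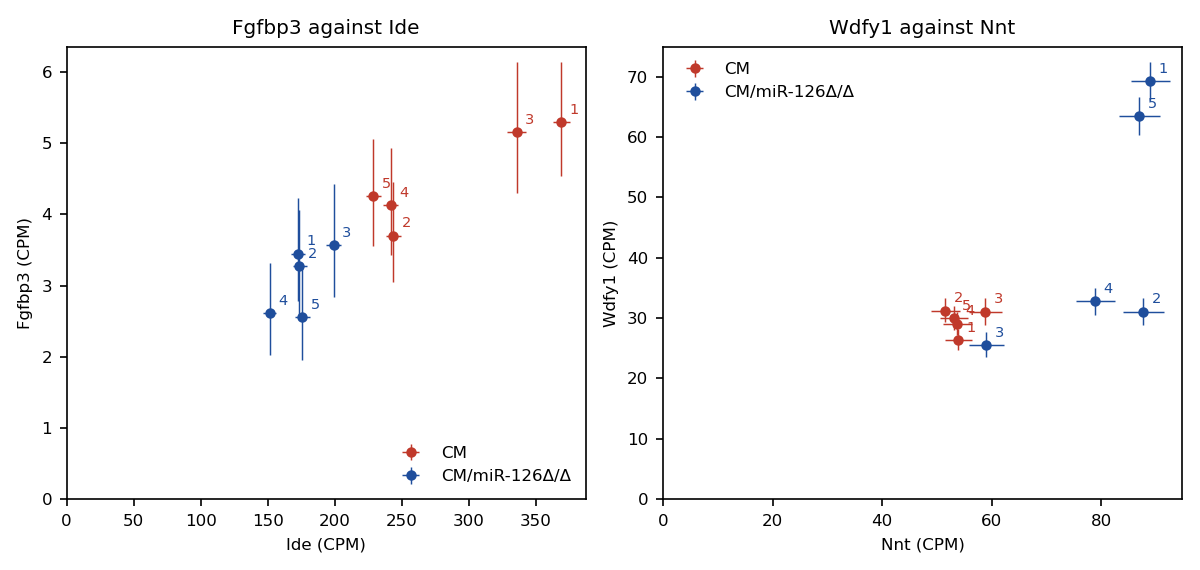
Left, Fgfbp3 against Ide, and right, Wdfy1 against Nnt, in CPM with both axes from 0, 1 point per mouse labelled with its replicate number (CM red, CM/miR-126Δ/Δ blue) and bars of 95% counting intervals. On the left CM mice 1 and 3 are highest for both genes and the CM/miR-126Δ/Δ mice are lowest. On the right CM/miR-126Δ/Δ mice 1 and 5 are high for both genes, mice 2 and 4 are high for Nnt alone, and mouse 3 lies beside the CM mice.

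The genes around Ide and Fgfbp3, which had no part in the choice, were compared in the same fit. Within 500 kb, 11 genes around Ide and 10 around Fgfbp3 were tested, with the genes between them counted for both. None was called by either rule and none separated the genotypes, where 0.288%, 0.0107% and 1.1% of all fitted genes did. Before adjustment 1 had p under 0.05, Cyp26c1, a retinoic acid hydroxylase barely detected here (0.182 to 0.958 CPM, adjusted p = 0.661, edgeR quasi-likelihood test). The expressed genes nearest to Ide were March5, a mitochondrial ubiquitin ligase 44.3 kb away, and Kif11, a mitotic kinesin 45.8 kb away on the other side. March5 was at 51.5 ± 2.02 CPM in the CM mice and 49.9 ± 2.24 CPM in the CM/miR-126Δ/Δ mice, with a log2 fold change of −0.04 (SE 0.05). Kif11 was at 224 ± 11.3 and 232 ± 26.8 CPM, with a log2 fold change of 0.05 (SE 0.08).

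Next to Fgfbp3 lie Btaf1, a TATA-binding-protein ATPase 6.48 kb away, and Tnks2, a tankyrase 24.1 kb away on the other side. Tnks2 was at 215 ± 15.6 CPM in the CM mice and 219 ± 13.7 CPM in the CM/miR-126Δ/Δ mice. Btaf1, which lies between Fgfbp3 and Ide, was at 207.1, 171.6, 227.6, 157.4 and 161.9 CPM in the CM mice and at 160.1, 166.9, 175.2, 144.4 and 167.8 CPM in the CM/miR-126Δ/Δ mice. As for Ide and Fgfbp3, CM mice 3 and 1 had the highest values, while the other 3 CM mice lay among the CM/miR-126Δ/Δ mice. The genotypes overlapped for Btaf1, with a log2 fold change of −0.18 (SE 0.10) and an adjusted p of 0.765 (edgeR quasi-likelihood test). Its correlation with Ide over the 10 libraries was 0.84, and it was looked at by mouse only after its values were seen.

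**Figure D3:**
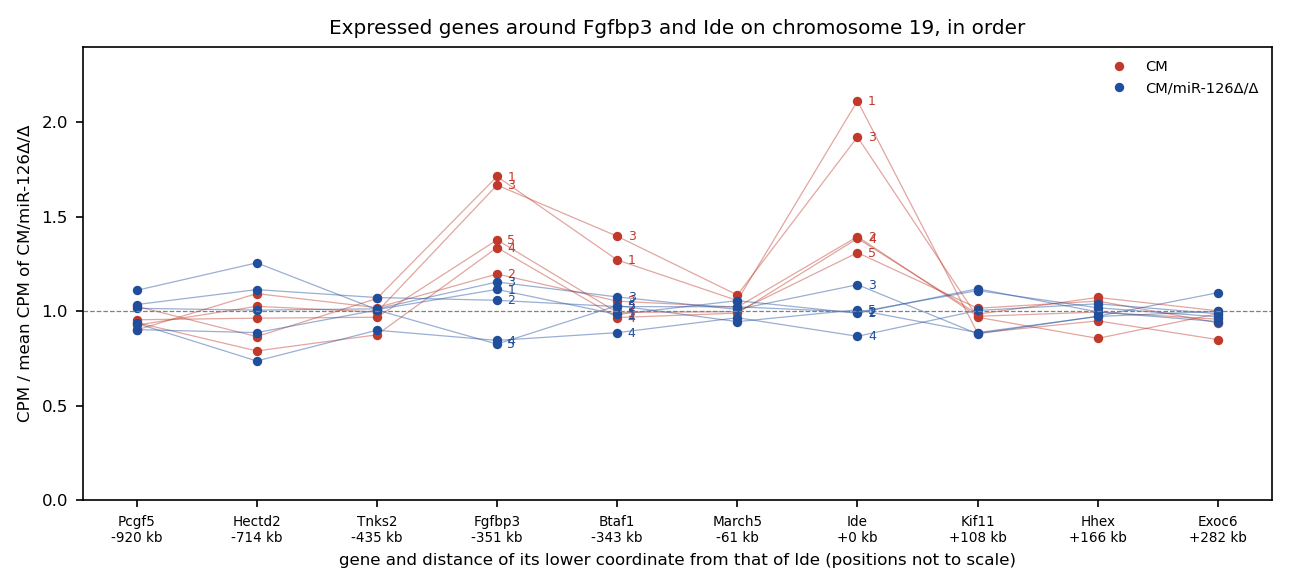
CPM of 10 expressed genes in chromosomal order, each divided by its mean over the CM/miR-126Δ/Δ mice (dashed line at 1), with 1 point per mouse in red for CM and blue for CM/miR-126Δ/Δ. Lines join the values of a mouse and numbers name mice for Fgfbp3, Btaf1 and Ide. Ide and Fgfbp3 are raised in all 5 CM mice and most in CM mice 1 and 3 (2.11 and 1.92 for Ide, 1.71 and 1.67 for Fgfbp3), and Btaf1 is raised in those same mice alone.

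Nnt differed in the other direction, with 54.2 ± 2.74 CPM in the CM mice and 80.3 ± 12.5 CPM in the CM/miR-126Δ/Δ mice (SD, n = 5 each). The CM mice had 53.9, 51.5, 58.8, 53.6 and 53.0 CPM, a range of 1.14-fold. CM/miR-126Δ/Δ mice 1 to 5 had 88.9, 87.6, 58.9, 78.9 and 86.9 CPM. Of these, mice 1, 2, 4 and 5 were 1.46 to 1.64 times the CM mean, while mouse 3 was at 1.09 times that mean, level with CM mouse 3. The fitted log2 fold change was 0.57 (SE 0.09), or 1.48-fold, which is under the fold cutoff of the study. Per length Nnt was at 11.1 RPKM in CM and 16.5 RPKM in CM/miR-126Δ/Δ mice.

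The complete separation of Nnt depended on how libraries were scaled. With TMM factors CM/miR-126Δ/Δ mouse 3 exceeded CM mouse 3 by a ratio of 1.00, and the counting intervals of the 2 overlapped. Without library factors the 2 genotypes overlapped, since the highest CM mouse was at 60.7 CPM and CM/miR-126Δ/Δ mouse 3 at 54.4 CPM. Ide and Fgfbp3 did not overlap under TMM factors, RLE factors or none. In the order of the 10 mice the widest step of Nnt, 1.34-fold, was between CM/miR-126Δ/Δ mice 3 and 4. Without CM/miR-126Δ/Δ mouse 3 the log2 fold change of Nnt was 0.66. Then 4 of the 6 genes met the cutoffs of the study, Nnt, Ide, Fgfbp3 and Wdfy1, beside 61 of all 18680 genes fitted. That mouse was the lowest of its genotype for Nnt and Wdfy1 and the highest for Ide and Fgfbp3, so leaving it out widens all 4 differences.

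Around Nnt 6 neighbours were expressed. All 6 lie on 1 side of it, and their log2 fold changes were −0.19 to 0.12, with none called by either rule among the 9 neighbours tested. The nearest, Paip1, which binds the poly(A)-binding protein in translation, lies 19.3 kb away and was at 77.9 ± 7.58 CPM in the CM mice and 76.1 ± 4.89 CPM in the CM/miR-126Δ/Δ mice. Its log2 fold change was −0.03 (SE 0.07). CM/miR-126Δ/Δ mouse 3, which stood apart for Nnt, had 80.8 CPM of Paip1 beside 68.7 to 80.0 CPM in the other 4 mice of its genotype.

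NADPH in mitochondria and cytosol is also made by isocitrate, malic, folate and pentose phosphate enzymes, and is spent by the glutathione and thioredoxin systems. All 28 genes of a list of these enzymes were tested. None was called in either direction and 1 had p under 0.05 before adjustment, Idh2, the mitochondrial NADP-dependent isocitrate dehydrogenase, where 6.61% of all fitted genes had such a p. Idh2 ranged over 210 to 248 CPM in the CM mice and 186 to 219 CPM in the CM/miR-126Δ/Δ mice, with a log2 fold change of −0.15 (SE 0.06) and an adjusted p of 0.746 (edgeR quasi-likelihood test). Gpx1, the glutathione peroxidase with the highest level of the list per length, had a log2 fold change of −0.10 (SE 0.10). The median log2 fold change of the list was −0.07, beside −0.02 over all expressed genes.

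By the correlation of log2 CPM over the 10 libraries, the genes most like Nnt were Zfp286, a zinc finger gene, Nbea, which encodes the trafficking protein neurobeachin, and Mir693, at 0.93 each. They lie on chromosomes 11, 3 and 17. For Nbea the CM mice had 16.7, 24.3, 21.1, 15.4 and 18.4 CPM and the CM/miR-126Δ/Δ mice had 43.5, 52.8, 16.6, 46.0 and 53.5 CPM. Mouse 3 was level with the CM mice, as for Nnt, a likeness that the choice by correlation with Nnt favours. Zfp286 had 6.75 to 7.83 CPM in the CM mice and 10.1 to 14.5 CPM in the CM/miR-126Δ/Δ mice, the lowest of these in mouse 3, and Mir693 had at most 0.185 CPM in any mouse. Correlations over 10 libraries of 2 genotypes rank every gene that differs between them, and they are given without a test.

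For Ide the most similar genes were Lins1, Slc5a6, a vitamin transporter, and Lyar, a nucleolar protein, at 0.93 each. Lins1 is on chromosome 7 and the other 2 are on chromosome 5. Their differences were smaller than that of Ide, with log2 fold changes of −0.18, −0.37 and −0.20. CM mouse 1 had the highest level of all 3, at 17.7 CPM for Lins1, 12.7 CPM for Slc5a6 and 45.7 CPM for Lyar. The choice by correlation with Ide favours such genes.

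No listed partner of Ide or Fgfbp3 was called. Of the M16 metallopeptidases, the family of Ide, and other peptidases that act on the same substrates, 12 were tested and none was called. The most abundant per length, Uqcrc1 and Uqcrc2, are core subunits of respiratory complex III that keep the family fold, and had log2 fold changes of −0.08 (SE 0.06) and −0.11 (SE 0.05). Among receptors and adaptors for insulin and IGF, 8 were tested and none was called, with the insulin receptor Insr at 0.02 (SE 0.10) and the IGF1 receptor Igf1r at 0.12 (SE 0.13) on the log2 scale. Among FGF-binding proteins, FGF receptors and their adaptors, 6 were tested and none was called. Frs2, the docking protein of the FGF receptors, had a log2 fold change of 0.20 (SE 0.06) with an adjusted p of 0.661, and the decoy receptor Fgfrl1 was at −0.06 (SE 0.12).

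Wdfy1 encodes an endosomal protein with FYVE and WD40 domains that recruits the adaptor TRIF to TLR3 and TLR4, and its transcript level is known to differ between C57BL/6 substrains. The CM mice had 26.3, 31.2, 31.0, 29.1 and 30.0 CPM. In CM/miR-126Δ/Δ mice 1 to 5 the values were 69.2, 31.0, 25.5, 32.7 and 63.4 CPM. Mice 1 and 5 were therefore at 2.34 and 2.15 times the CM mean, and mice 2, 3 and 4 were at 1.05, 0.864 and 1.11 times it. The genotypes overlapped, since mouse 3 was below every CM mouse. In the order of the 10 mice there was 1 wide step, 1.94-fold, below CM/miR-126Δ/Δ mouse 5, and all steps under it were within the counting intervals.

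The mean of Wdfy1 was 29.5 ± 1.98 CPM in the CM mice and 44.4 ± 20.3 CPM in the CM/miR-126Δ/Δ mice (SD, n = 5 each), and the log2 fold change was 0.59 (SE 0.23). That difference rested on mice 1 and 5, as the values show. Its biological coefficient of variation between mice of a genotype, from edgeR, was 0.266, which was 2.01 times the trend at its abundance. A ratio of at least 1.5 was found for 6.15% of all fitted genes and for 4.19% of the expressed ones. Nlrp12, with few counts, was also past that ratio, at 1.94 times its trend, while Ide was at 1.38, Nnt at 1.11, Cyfip2 at 0.755 and Fgfbp3 at 0.697 times.

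Nnt and Wdfy1 were high in different sets of mice. CM/miR-126Δ/Δ mice 1 and 5 were high for both genes, mice 2 and 4 were high for Nnt and level with CM for Wdfy1, and mouse 3 was low for both. Among the CM mice, those with the highest Ide, 1 and 3, had Nnt at 53.9 and 58.8 CPM and Wdfy1 at 26.3 and 31.0 CPM, within 1.14-fold and 1.19-fold of the other CM mice. The 3 genes thus gave different divisions of the mice, and those were not used to form groups.

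The neighbours of Wdfy1 showed no such pair of high mice. Mrpl44, a mitochondrial ribosomal protein gene 14.2 kb away, was at 35.6 ± 4.03 CPM in the CM mice and 35.3 ± 1.60 CPM in the CM/miR-126Δ/Δ mice, and CM/miR-126Δ/Δ mice 1 and 5 had 35.9 and 34.3 CPM. On the other side, Ap1s3, a clathrin adaptor subunit 30.3 kb away, was at 23.9 and 16.3 CPM in those mice, the highest and the lowest of all 10. Their log2 fold changes were −0.01 (SE 0.08) and 0.03 (SE 0.11), and none of the 4 neighbours tested was called. Of 14 genes of the Wdfy family and the TLR3 and TLR4 adaptor pathway, all tested, none was called. Wdfy4, a relative that acts in cross-presentation, had a log2 fold change of 0.12 (SE 0.09) and the kinase Tbk1 had −0.02 (SE 0.07).

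**Figure D4:**
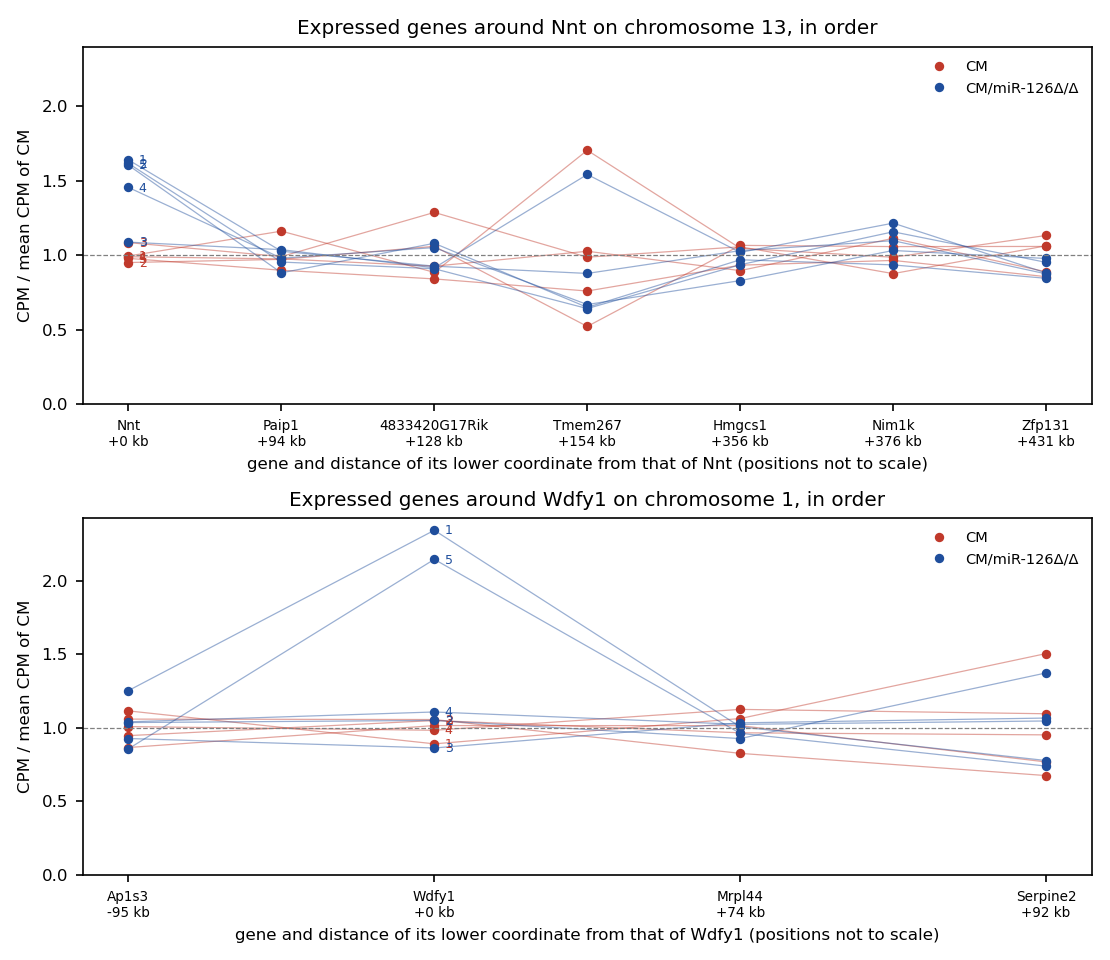
CPM of the expressed genes within 500 kb of Nnt (top) and Wdfy1 (bottom) in chromosomal order, each divided by its mean over the CM mice (dashed line at 1), with 1 point per mouse in red for CM and blue for CM/miR-126Δ/Δ. CM/miR-126Δ/Δ mice 1, 2, 4 and 5 stand at 1.46 to 1.64 for Nnt and mice 1 and 5 stand at 2.34 and 2.15 for Wdfy1, while at the neighbouring genes red and blue points are mixed.

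Cyfip2 encodes a subunit of the WAVE complex, which drives branching of actin filaments, and it carries a coding difference between C57BL/6J and C57BL/6N. It was the most abundant of the 7 genes, at 68.6 RPKM in CM and 68.1 RPKM in CM/miR-126Δ/Δ mice. In CM mice 1 to 5 it was at 460.4, 506.4, 463.4, 474.1 and 508.0 CPM, and in CM/miR-126Δ/Δ mice 1 to 5 at 470.5, 481.6, 536.1, 425.3 and 481.5 CPM. The genotypes overlapped over most of their ranges, with a log2 fold change of −0.01 (SE 0.07), whose sign changed with the processing. Coding differences leave no trace in a count per gene. None of 16 genes of the WAVE complex and its inputs was called, with Arpc2 and Actr2, subunits of the Arp2/3 complex, at −0.10 (SE 0.06) and −0.01 (SE 0.07) on the log2 scale. Its nearest expressed neighbours, Med7 and Thg1l, were at 0.02 (SE 0.09) and −0.03 (SE 0.08).

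Nlrp12, a receptor of the NLR family found mainly in granulocytes and monocytes, was close to the limit of detection, and it too carries a coding difference between substrains. Its counts were 6, 0, 2, 5 and 15 in the CM mice and 4, 9, 5, 13 and 0 in the CM/miR-126Δ/Δ mice. Per length this was 0.043 RPKM in CM and 0.057 RPKM in CM/miR-126Δ/Δ mice, and a difference was not detectable at this depth (log2 fold change 0.40, SE 0.77). Single mice moved this value, to 1.17 without CM mouse 5, 0.08 without CM mouse 2 and −0.03 without CM/miR-126Δ/Δ mouse 4. All 9 neutrophil and granule markers were detected, with a summed level of 1729 to 3315 CPM in the CM mice and 1438 to 4049 CPM in the CM/miR-126Δ/Δ mice, a median log2 fold change of 0.74 and none called. That median was −1.82 without CM/miR-126Δ/Δ mouse 4 and 2.06 without CM mouse 5. S100a8, a granule and cytosol protein of neutrophils, was at 72.2 CPM in the former and 27.6 CPM in the latter, and at 0.479 to 7.70 CPM in the other 8 mice. S100a9, Ngp, Camp, Ltf and Ly6g were likewise highest in these 2 mice, which also had the most Nlrp12 counts, 13 and 15. The summed level was mostly Mpo and does not show this. The part of these markers in the Nlrp12 counts was not tested. Of 21 tested NLR and inflammasome genes none was called. Casp1 had a log2 fold change of −0.08 (SE 0.07) and Gsdmd, the pore-forming substrate of that caspase, had −0.20 (SE 0.08) with an adjusted p of 0.748 (edgeR quasi-likelihood test). Myadm, the nearest expressed neighbour, was at −0.14 (SE 0.09).

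Entpd4 encodes a nucleoside diphosphatase of the Golgi and lysosome, and mice have a second, near-identical copy, Entpd4b. Both were listed at 0 counts in all 10 libraries, so their level is uncertain and is not read as absence. In the count table the interval of Entpd4 covers the whole of Entpd4b, whereas RefSeq in GRCm38.p6 places Entpd4 at chr14:69337151-69366742 and Entpd4b at chr14:69555401-69584940. Of the 358 genes whose interval and that of another gene on the same strand cover each other by at least 95%, 88.8% had 0 counts in all libraries, where 25.2% of all listed genes did. The nearest expressed neighbours, the mitochondrial iron carrier Slc25a37 and R3hcc1, had log2 fold changes of −0.18 (SE 0.09) and −0.05 (SE 0.08). Of 12 tested genes in a list of other nucleotide hydrolases and their companions none was called. Entpd5 was at 0.11 (SE 0.10) and its listed companion Uggt1, a glycoprotein folding sensor, at 0.05 (SE 0.08).

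A short list of other genes that carry variants between C57BL/6 colonies was also tested and none was called. Mmrn1, which encodes the platelet and endothelial protein multimerin, was at 66.4, 82.1, 47.7, 96.4 and 107.9 CPM in the CM mice and at 72.7, 77.8, 37.9, 67.4 and 68.3 CPM in the CM/miR-126Δ/Δ mice, so it was transcribed in every mouse. Its log2 fold change was −0.31 (SE 0.21), with an adjusted p of 0.765. Dock2, a guanine nucleotide exchange factor of blood cells, was at 545 ± 18.6 CPM in the CM mice and 586 ± 46.8 CPM in the CM/miR-126Δ/Δ mice, with a log2 fold change of 0.10 (SE 0.07).

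Over all 7 genes, 74 neighbours were tested, 40 of them expressed. None was called higher or lower by the cutoffs of the study or at an adjusted p under 0.05, where 0.288% and 0.0107% of all fitted genes were. Of the 74, 1 had p under 0.05 before adjustment, where 6.61% of all did. None of the 74 separated the genotypes, where 1.1% of all did. Over the 9 lists, 121 genes were tested and none was called by either rule, with edgeR or with DESeq2. Of these, 7 had p under 0.05 before adjustment, and the median log2 fold change was −0.03 beside −0.01 over all fitted genes. With shares this low, counts of 0 called among 74 or 121 genes are not unusual for any genes.

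The replicate number, 1 to 5 in each genotype, was also tested as a source of shared level, with genotype in the fit. None of the 6 fitted genes differed between numbers at an adjusted p under 0.05 (edgeR quasi-likelihood test), where 0.437% of all fitted genes did. For Ide the edgeR adjusted p was 0.307 (0.02 before adjustment), the lowest of the 6, and it was 0.932 for Nnt, 0.755 for Fgfbp3, 0.64 for Wdfy1, 0.876 for Cyfip2 and 0.935 for Nlrp12. Before adjustment 12.2% of all fitted genes had p under 0.05. Mouse 3 had the highest Ide value of the CM/miR-126Δ/Δ mice and the second highest of the CM mice, whereas mouse 1 was highest in CM and second lowest in CM/miR-126Δ/Δ.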

How the data were processed

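LSK cells of 10 mice, 5 per genotype, were sequenced as stranded, ribosome-depleted libraries with single reads of 51 bases. The deposited values used here are counts: whole reads per RefSeq gene, which the authors made by trimming the reads, aligning them to mm10 with TopHat2 and counting with HTSeq (0.6.1p1 per the labels), with no normalization. The strand setting of the counting is not given in the sources used here, so overlapping and antisense genes can share reads, and near-identical copies such as Entpd4 and Entpd4b are uncertain. A second deposited table of normalized values was not used here.

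The 18747 genes counted at least once were compared by the two-sided quasi-likelihood F-test of edgeR 4.0.16 (R 4.3.3), run as in version 3 with TMM factors and genotype as the term, with Benjamini-Hochberg adjustment over all of them. Genes were called by the cutoffs of the study and, separately, by adjusted p under 0.05. RPKM used the exon lengths of the count table. Counts were simulated for 18747 genes, and some of those with a mean of at least 1 CPM were changed by 2-fold or 4-fold. At an adjusted p under 0.05 the genotype test recovered 87% of these 2-fold and 99% of these 4-fold changes, and the replicate number test 71% and 94%. More genes were changed than passed that threshold in the data, which loosens it, so these shares may be too high for the data. Smaller changes, such as those fitted for the 6 genes, and changes at levels as low as that of Nlrp12 were not simulated. Mice were separate animals with 1 library each. Same-numbered mice of the 2 genotypes deviated together from their genotype means in all 5 pairs (r 0.172 to 0.465, mean 0.330). The mean for other pairs was −0.0845. That value adds little of its own, since the deviations cancel within each genotype and the same-numbered mean largely sets it. However, only 5 mice correlated best with the mouse of their own number. The highest r of any pair, 0.499, was between CM mouse 5 and CM/miR-126Δ/Δ mouse 4. CM mouse 2 was closer to CM/miR-126Δ/Δ mouse 1 (0.421) than to mouse 2 (0.246). By these correlations alone, pairing by the labels' numbers was uncertain. The main fit left the number out, and a fit with the number as a block was an alternative. In the column headers of the count table, the sample numbers of same-numbered mice are consecutive in every pair. What the numbers mark is not given in the sources used here.

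The 7 genes and the lists were chosen with earlier results of these data known. Named beside them are neighbours within 500 kb that were called and the nearest with a mean RPKM of at least 1 on each side, the 2 genes of each list with the highest mean RPKM and any called, the 3 genes most like Nnt and Ide (log2 CPM with a prior count of 2), and Mir126a, Egfl7 and Cbfb. Cyp26c1 and the values of Btaf1 by mouse were added after the values were seen, and 1 item is not reported here. Sequences of GENCODE M1 follow an older build, and their coordinates were not used. DESeq2 1.42.0, RLE factors, filters on low counts, edgeR 4, the block and leaving out each mouse were the alternatives, and scaling without factors for the overlap of genotypes was chosen after the data were seen. Python 3.11.15 was used for tables and figures.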

Additional observations from a re-analysis of the deposited data

Results flagged for a closer look

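Among 90 groups of 5 mice (45 named genes and totals in 2 genotypes), 6 had a mouse whose gap to the nearest other exceeded Dixon's 95% critical value of 0.71 of the range, where chance gives about 1 in 20 groups, or 4.5. None of the 7 genes was among them. Nnt came nearest, at 0.665 for CM/miR-126Δ/Δ mouse 3 and 0.673 for CM mouse 3. CM/miR-126Δ/Δ mouse 3 was far below the others for Nbea (16.6 CPM against 43.5 to 53.5) and Mmrn1 (37.9 CPM against 67.4 to 77.8). Nbea was named for its likeness to Nnt, so its low mouse is not independent of that of Nnt. CM mouse 1, highest for Ide, was far above the others for Cbfb (192.1 CPM against 149.4 to 158.9), and CM mouse 3 was for Slc25a37 (109.4 CPM against 78.9 to 87.8). CM/miR-126Δ/Δ mouse 4 was far below for Igf1r (257.9 CPM against 415.0 to 455.1) and CM mouse 4 for Uggt1 (218.8 CPM against 249.1 to 261.0).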

How the results depend on the processing

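All 106 alternative fold changes of the 6 fitted genes were within 1 SD between mice of the value given, and 99 kept its sign. Leaving out 1 of 5 mice can hardly move a mean by 1 SD, so the first count says little about stability. Nnt (0.53 to 0.66), Ide (−0.76 to −0.58), Fgfbp3 (−0.61 to −0.47) and Wdfy1 (0.38 to 0.73, log2) kept theirs in all 18 alternatives each, while Cyfip2 did in 12 of 18 (−0.05 to 0.04) and Nlrp12 in 15 of 16 (−0.03 without CM/miR-126Δ/Δ mouse 4 to 1.17 without CM mouse 5). The median of the neutrophil and granule markers, 0.74, was −1.82 to 2.06 leaving out 1 mouse, with the ends set by the same 2 mice, and this was added after the data were seen. The count of the 6 called by the cutoffs of the study was 1, and 2 with filterByExpr or with only genes of a mean RPKM of at least 1 (Nnt added in both). Leaving out 1 mouse gave 0 to 4: 0 without CM mouse 1, 4 without CM/miR-126Δ/Δ mouse 3, and 2 without CM mouse 2 (Fgfbp3 added), CM mouse 3 or CM/miR-126Δ/Δ mouse 4 (Nnt added). The count with an adjusted p under 0.05 was 0, and 2 with DESeq2 (Nnt and Ide), 1 with the replicate block (Ide), and 0 to 1 leaving out 1 mouse (Nnt without CM/miR-126Δ/Δ mouse 3). The lists went from 0 genes called to 1 without CM mouse 2 (Igf2r, log2 fold change 0.67), and no alternative called a neighbour.

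Over all genes, the cutoffs of the study called 54, the replicate block 115, and 33 (without CM/miR-126Δ/Δ mouse 5) to 128 (without CM mouse 3) leaving out 1 mouse. Adjusted p called 2 genes, 31 with DESeq2, 4 with either filter, 20 with the replicate block and 1 to 7 leaving out 1 mouse (7 without CM/miR-126Δ/Δ mouse 3). Between replicate numbers 82 genes were called, 38 with edgeR 4, 21 with filterByExpr, 29 with only genes of a mean RPKM of at least 1, and 24 to 195 leaving out both mice of a number (24 without number 3, 195 without number 5). The filters tested fewer genes, and the cause of the other changes was not tested. The replicate block changed no call of the 7 genes apart from that of Ide. Depth limited Nlrp12 and Mir126a, near 3 counts per library, and Fgfbp3, whose neighbouring mice in order had overlapping counting intervals.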
